A study of Homo sapiens with 6 samples.

Results

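The genes described are those of the cytosolic ribosomal proteins, the protein part of the ribosomes that translate nuclear-encoded messages. They were chosen by symbol alone: RPL or RPS followed by a number and at most 1 letter (A, X or L), together with RPLP0, RPLP1, RPLP2 and RPSA. The rule took 79 of the 23024 gene symbols listed, of which 47 belong to the large subunit and 32 to the small subunit. RNA sequencing was done on 5637 cells, an established human bladder carcinoma line, in 3 sh-RAD51C libraries, whose genotype is given as RAD51C knockdown by a short hairpin RNA, and 3 NC libraries, whose genotype is given as WT. All were made from total RNA of transfected cells. The labels do not explain NC, give no hairpin sequence and do not tie libraries to cultures, so each p-value reflects spread among libraries that may differ only technically. The comparison addresses how expression in this line differs when RAD51C, a gene of DNA repair by homologous recombination, is lowered.

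A ribosome is built in the nucleolus and nucleoplasm from ribosomal RNAs and one copy of nearly every ribosomal protein, with several copies of the acidic stalk proteins. Cells keep the supply of these proteins matched, because those made in excess are degraded and because free RPL5 and RPL11, bound to 5S ribosomal RNA, inhibit MDM2 and so stabilise p53. Most of the messages start with a terminal oligopyrimidine tract, a C followed by further pyrimidines, through which mTORC1 and LARP1 set how well they are translated. Many of the genes also carry small nucleolar RNAs in their introns, which guide the modification of ribosomal RNA.

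The tract can be read at the annotated starts of the genes that differed between the groups. The RefSeq table of GRCh38.p14 held a start for 63 of the 79 genes. A start was counted as pyrimidine-tract-like where a C at the first transcribed base was followed by at least 4 further C or T bases on the coding strand. Of these 63 genes, 46 (73.0%) had such a start, against 7.24% of the 8968 other tested genes with an entry and 4.07% of all 35116 start windows of the same length in the table. Each line gives 15 bases before and 15 bases from the start, 5′ to 3′ on the coding strand, and capitals mark the unbroken run of C and T that begins at the start, where that base is C. The first 4 are genes that were lower in sh-RAD51C libraries and have such a tract, RPL3 was lower with a shorter run, and RPS10 and RPS27L were the genes that were higher.
RPL13A (chr19:49487593-49487622, plus strand): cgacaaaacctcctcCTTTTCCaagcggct
RPL7A (chr9:133348203-133348232, plus strand): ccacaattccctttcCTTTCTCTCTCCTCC
RPS16 (chr19:39435935-39435964, minus strand): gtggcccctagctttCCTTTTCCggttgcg
RPL18 (chr19:48619164-48619193, minus strand): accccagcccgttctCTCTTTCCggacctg
RPL3 (chr22:39319609-39319638, minus strand): gtaaggccgaccggcCTCTaccggcgggat
RPS10 (chr6:34426055-34426084, minus strand): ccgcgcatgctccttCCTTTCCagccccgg
RPS27L (chr15:63157463-63157492, minus strand): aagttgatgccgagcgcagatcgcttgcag
The genes of each direction therefore included one with no tract of that kind at the annotated start. These letters describe the annotated starts, and which start was used in these cells was not measured.

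The deposited values were FPKM, numbers of reads or fragments divided by gene length and library size. Whole reads could be inferred from the steps in these values, and the totals lay between 37104318 and 38079825 reads in sh-RAD51C libraries and between 36068282 and 37560184 reads in NC libraries. RAD51C measured 3.51, 3.09 and 2.95 FPKM in sh-RAD51C libraries and 14.7, 13.2 and 13.6 FPKM in NC libraries, so the groups were apart (limma adjusted p = 7.16e-09). By exact permutation, two-sided, p was 0.1, the smallest that 3 libraries against 3 allow. All 6 epithelial and urothelial markers (KRT5, KRT7, KRT8, KRT18, EPCAM and CDH1) had a mean of at least 1 FPKM, with sums of 1971 to 2051 FPKM in sh-RAD51C libraries and 1809 to 1864 FPKM in NC libraries. None of 4 endothelial markers, 1 of 4 listed fibroblast markers and 2 of 3 listed blood markers reached 1 FPKM. The blood markers summed to 87.8 to 92.3 FPKM in sh-RAD51C libraries and 94.4 to 101.9 FPKM in NC libraries, the fibroblast markers to 6.45 to 7.23 FPKM in sh-RAD51C libraries and 9.62 to 10.3 FPKM in NC libraries, and none of the listed markers was at 0 in all libraries. The part of these cell types in the results was not tested.

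Most ribosomal protein genes differed by little between sh-RAD51C and NC libraries, and those that were called were mostly lower in sh-RAD51C libraries. Tests covered the 11152 genes averaging 1 FPKM or more, and these included 78 of the 79. RPL3L, whose protein replaces RPL3 in heart and skeletal muscle, was left out because it had 1 inferred read in sh-RAD51C library 1 and none in the other libraries. A gene was called where the limma adjusted p on log2(FPKM + 1) was under 0.05 over all genes tested. By that rule 2 ribosomal protein genes were higher in sh-RAD51C libraries, 12 were lower and 64 were not called. Calls were thus made for 17.9% of these genes, where the same fit called 49.4% of all genes tested, 23.2% higher and 26.2% lower. The median log2 fold change was −0.04 over the 78 genes and −0.01 over all genes tested, and the median size of the change, sign left aside, was 0.05 against 0.15. Of the 78 genes, 55 had a log2 fold change below 0. In bulk RNA, fewer cells of a kind and less RNA per cell cannot be told apart. The mean FPKM of 71 of the 78 genes lay within 10% of each other in the 2 groups.

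Both subunits had more genes called lower than higher, at shares under those of all genes tested (26.2% lower and 23.2% higher). In the large subunit 0 genes were higher and 7 (15.2%) lower of 46 tested, with a median of −0.03 (log2). In the small subunit 2 (6.25%) were higher and 5 (15.6%) lower of 32 tested, with a median of −0.04. The summed FPKM of large subunit genes over that of small subunit genes was 1.49 ± 0.006 in sh-RAD51C libraries and 1.47 ± 0.011 in NC libraries (SD, n = 3 each).

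**Figure D1:**
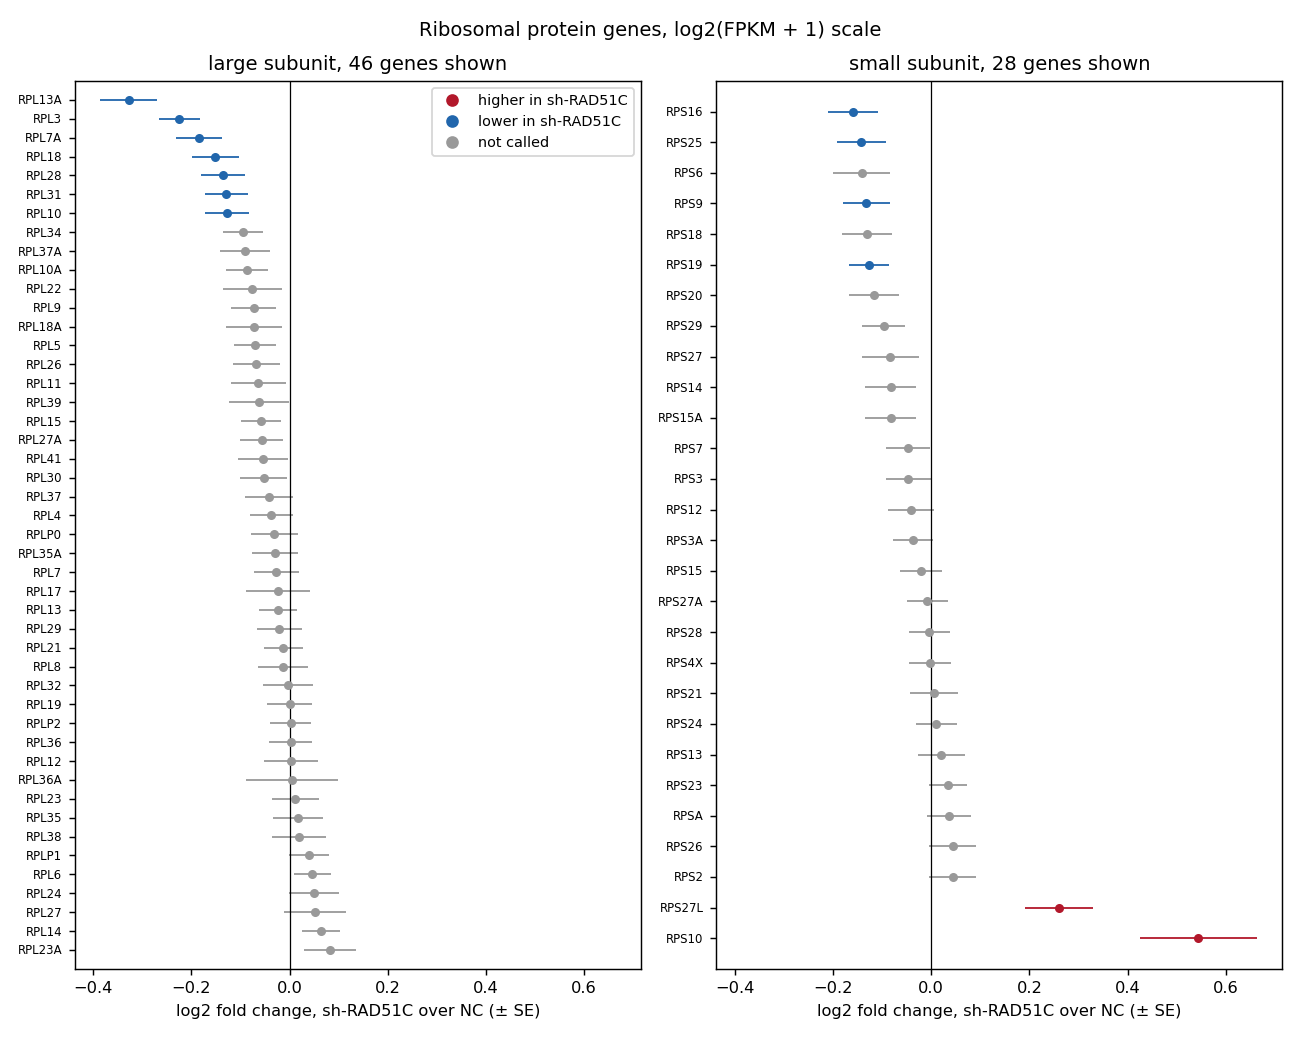
Log2 fold change of 74 tested ribosomal protein genes, sh-RAD51C over NC, with its standard error (horizontal bars), for 46 large subunit genes (left) and 28 small subunit genes (right), sorted from low to high. Most genes sit near 0, RPL13A and RPL3 lie at −0.33 and −0.22, and RPS10 and RPS27L are the only called genes above it, at 0.54 and 0.26.

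RPL13A had the lowest log2 fold change of the 78. It encodes a large subunit protein that is also known from the interferon-gamma response of human monocytes, where it leaves the ribosome to silence translation of inflammatory messages. Its level was 957, 858 and 825 FPKM in sh-RAD51C libraries and 1135, 1124 and 1050 FPKM in NC libraries. Every sh-RAD51C library lay below every NC library. The means were 880 ± 68.8 FPKM in sh-RAD51C libraries and 1103 ± 46.2 FPKM in NC libraries (SD, n = 3 each), which is −0.33 in log2 fold change with an SE of 0.058 (limma adjusted p = 0.000755).

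RPL3 and RPL7A were lower too, and both are large subunit proteins. RPL3 reaches towards the peptidyl transferase centre, where peptide bonds are made. It had 851, 815 and 793 FPKM in sh-RAD51C libraries and 967, 972 and 933 FPKM in NC libraries, with means of 819 ± 29.5 FPKM in sh-RAD51C libraries and 957 ± 20.8 FPKM in NC libraries (SD, n = 3 each). The groups were apart, and log2 fold change was −0.22 with an SE of 0.043 (limma adjusted p = 0.00118). RPL7A, among the 5 genes of the family with the highest FPKM, had 1541, 1446 and 1418 FPKM in sh-RAD51C libraries and 1662, 1689 and 1650 FPKM in NC libraries. Here too the highest sh-RAD51C library was below the lowest NC library, and the log2 fold change was −0.18 (SE 0.047, limma adjusted p = 0.00696). RPL13A and RPL3 were called lower in all 17 alternative fits that were tried, and RPL7A in 16 of them; without the filter on low values its limma adjusted p was 0.0619.

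**Figure D2:**
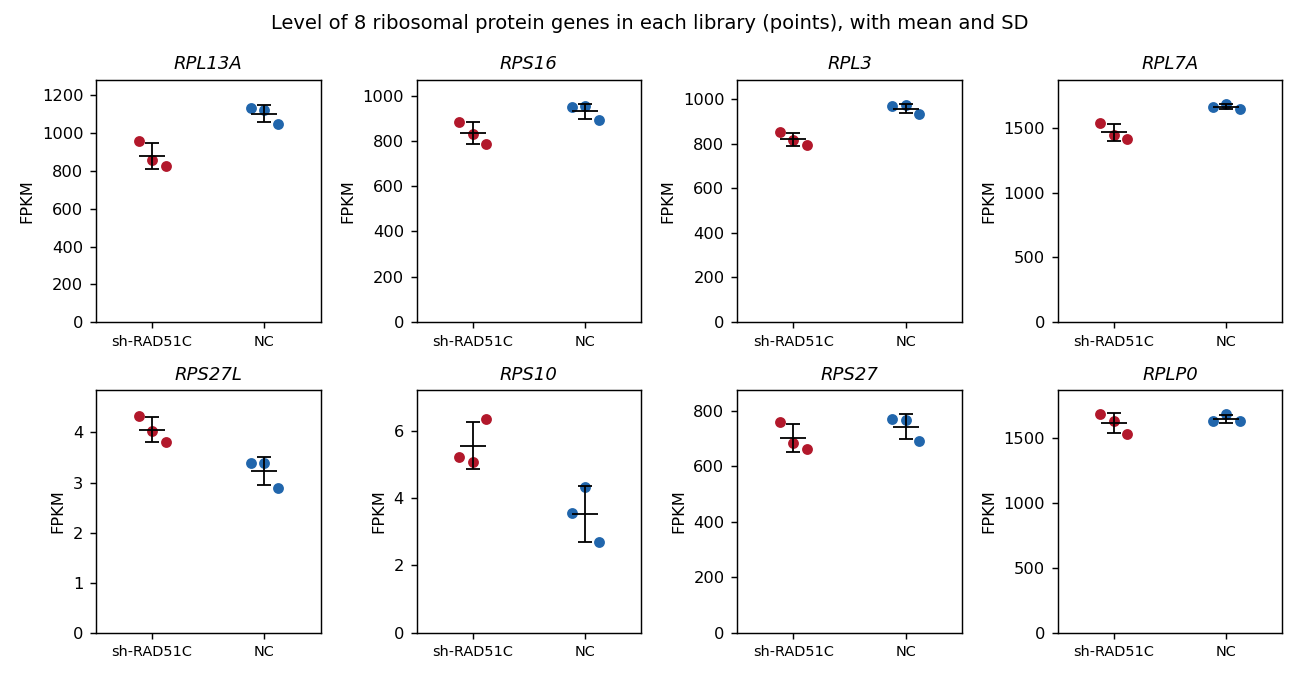
FPKM of 8 ribosomal protein genes in each library (points, libraries 1 to 3 from left to right) of the sh-RAD51C group (left in each panel) and the NC group (right), with the mean and SD as bars; axes start at 0. The groups do not overlap for RPL13A, RPS16, RPL3 and RPL7A, which are lower in sh-RAD51C libraries, or for RPS27L and RPS10, which are higher, and they overlap for RPS27 and RPLP0.

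A further 8 genes called lower differed less, with log2 fold changes between −0.16 and −0.13. Among the small subunit genes, RPS16, whose protein reaches the transfer RNA in the P site, had 834 ± 49.1 FPKM in sh-RAD51C libraries and 931 ± 32.5 FPKM in NC libraries (log2 fold change −0.16, limma adjusted p = 0.0214). RPS19, the gene most often mutated in Diamond-Blackfan anaemia, had 260 ± 11.96 FPKM in sh-RAD51C libraries and 284 ± 5.38 FPKM in NC libraries (−0.13, limma adjusted p = 0.0231). RPS25, a protein of the small subunit head used by viral internal ribosome entry sites, had 658 ± 35.2 FPKM in sh-RAD51C libraries and 727 ± 34.0 FPKM in NC libraries (−0.14, limma adjusted p = 0.0354). The groups overlapped for RPS25 and did not for RPS16 and RPS19. RPS9, which lies at the entry of the messenger RNA channel, had 404 ± 20.7 FPKM in sh-RAD51C libraries and 443 ± 19.8 FPKM in NC libraries, with overlapping groups (−0.13, limma adjusted p = 0.0385).

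Among the large subunit genes, RPL18 had 816 ± 42.5 FPKM in sh-RAD51C libraries and 906 ± 28.5 FPKM in NC libraries (log2 fold change −0.15, limma adjusted p = 0.0215). RPL10, one of the last proteins to join the large subunit during its maturation, had 368 ± 17.8 FPKM in sh-RAD51C libraries and 402 ± 13.5 FPKM in NC libraries (−0.13, limma adjusted p = 0.033). The groups did not overlap for either gene. RPL28, a protein that budding yeast ribosomes lack, had 80.6 ± 4.23 FPKM in sh-RAD51C libraries and 88.6 ± 3.55 FPKM in NC libraries (−0.14, limma adjusted p = 0.0275). RPL31, which lies near the exit of the peptide tunnel, had 153 ± 7.49 FPKM in sh-RAD51C libraries and 168 ± 6.53 FPKM in NC libraries (−0.13, limma adjusted p = 0.031). Both of these overlapped between the groups. Each of these 8 genes was called lower in 8 to 11 of the 17 alternative fits, so their calls depended on the setting. The principal transcripts of RPL10, RPS25, RPL31 and RPL18 overlap exons of other annotated genes over 55.9%, 36.6%, 28.4% and 26.4% of their length in GENCODE release 29, and whether reads were counted by strand is not stated, so these values are less certain.

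Groups that did not overlap were found for 13 of the 78 genes, 2 higher and 11 lower in sh-RAD51C libraries, while 58.4% of all genes tested did not overlap, 27.6% higher and 30.8% lower. The 11 included 3 that were not called, among them RPS18 (1282 ± 72.8 FPKM in sh-RAD51C libraries and 1402 ± 40.4 FPKM in NC libraries, limma adjusted p = 0.0531) and RPL34.

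The genes called higher were at the low end of the family. RPS27L, a paralog of RPS27 whose transcription p53 can induce, had 4.33, 4.03 and 3.82 FPKM in sh-RAD51C libraries and 3.39, 3.40 and 2.90 FPKM in NC libraries. All sh-RAD51C libraries were above all NC libraries, and the log2 fold change was 0.26 (SE 0.069, limma adjusted p = 0.00914). Its paralog RPS27 had 703 ± 51.0 FPKM in sh-RAD51C libraries and 744 ± 43.9 FPKM in NC libraries (SD, n = 3 each), with overlapping groups and a log2 fold change of −0.08 (limma adjusted p = 0.265). RPS10, a protein of the small subunit near the entry of the messenger RNA, had 5.23, 5.07 and 6.35 FPKM in sh-RAD51C libraries and 3.57, 4.33 and 2.68 FPKM in NC libraries. These groups did not overlap, and the log2 fold change was 0.54 (SE 0.119, limma adjusted p = 0.00294). The values of RPS10 rest on 164, 155 and 199 inferred reads in sh-RAD51C libraries and 106, 134 and 83 in NC libraries. In GENCODE release 29, 77.0% of its principal transcript overlaps exons of another gene, the readthrough gene RPS10-NUDT3.

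RPS10 was not alone in this. RPL17 and RPL36A, whose principal transcripts overlap other genes, the readthrough genes RPL17-C18orf32 and RPL36A-HNRNPH2 among them, by 83.8% and 77.6%, were also among the 5 tested genes with the lowest FPKM. RPL17 had 11.3 ± 1.01 FPKM in sh-RAD51C libraries and 11.5 ± 0.681 FPKM in NC libraries, and RPL36A had 1.29 ± 0.319 FPKM in sh-RAD51C libraries and 1.26 ± 0.0281 FPKM in NC libraries. How the authors' counting assigned reads shared with a readthrough gene is not given in the sources used here, so the FPKM of these 3 genes cannot be taken as the level of their messages.

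RPL30 and RPLP0, like RPL7A among the 5 genes with the highest FPKM, were not called. RPL30, a large subunit protein that in yeast represses the splicing of its own transcript, had 1604 ± 65.5 FPKM in sh-RAD51C libraries and 1664 ± 54.0 FPKM in NC libraries (SD, n = 3 each). RPLP0, the base of the stalk that recruits elongation factors, had 1611 ± 74.6 FPKM in sh-RAD51C libraries and 1645 ± 31.8 FPKM in NC libraries. The groups overlapped for both genes. The stalk partners RPLP1 and RPLP2 had log2 fold changes of 0.04 (limma adjusted p = 0.454) and 0.00 (limma adjusted p = 0.974). RPLP1 had 770 ± 26.7 FPKM in sh-RAD51C libraries and 749 ± 15.6 FPKM in NC libraries, and RPLP2 had 1163 ± 37.1 FPKM in sh-RAD51C libraries and 1161 ± 16.5 FPKM in NC libraries.

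RPL5, RPL11, RPS6, RPSA and RPS4X were not called. RPL5 had 1028, 973 and 963 FPKM in sh-RAD51C libraries and 1052, 1048 and 1013 FPKM in NC libraries, a log2 fold change of −0.07 (limma adjusted p = 0.195). RPL11 had 517 ± 41.0 FPKM in sh-RAD51C libraries and 540 ± 21.1 FPKM in NC libraries (−0.06, limma adjusted p = 0.374). The groups overlapped for both of these MDM2-binding proteins. RPS6, the substrate of the S6 kinases, had 824, 750 and 719 FPKM in sh-RAD51C libraries and 884, 858 and 787 FPKM in NC libraries. Its log2 fold change of −0.14 was the lowest of the 64 uncalled genes (limma adjusted p = 0.0661), and it was called lower in 8 of the 17 alternative fits. RPSA, also known as the laminin receptor precursor, had 650 ± 35.4 FPKM in sh-RAD51C libraries and 633 ± 11.9 FPKM in NC libraries (0.04, limma adjusted p = 0.54), and RPS4X, the X-linked copy of its gene, had 736 ± 30.9 FPKM in sh-RAD51C libraries and 737 ± 17.5 FPKM in NC libraries (limma adjusted p = 0.962). Over the 64 uncalled genes the log2 fold change ran from −0.14 for RPS6 to 0.08 for RPL23A, with a median standard error of 0.047.

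FPKM ranks these genes partly by the gene length that was used. Over the 78 genes the mean FPKM and the inferred length were related with a Spearman rho of −0.664, given as a description, since each FPKM contains that length. RPS29, at 47.3 ± 2.42 FPKM in sh-RAD51C libraries and 50.7 ± 1.64 FPKM in NC libraries, had an inferred length of 7472 bases, and RPL37 had 7573 bases. When inferred reads were instead divided by the length of the coding sequence, RPL32 and RPL41 ranked 1 and 2 among the 79 genes and RPS29 ranked 8. A ratio of FPKM within a gene does not carry this length. The fold changes given here do so for genes of low FPKM, because 1 was added before the log2. Trends with gene length and GC that differ between libraries can also enter them. Removing those trends gave 12 genes higher and 11 lower. GENCODE also names at least 1 pseudogene copy for 76 of the 79 genes, with a median of 9 and up to 91 for RPL23A, so reads of these genes can be shared with copies.

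The ribosomal protein genes moved together from library to library within each group. Of the 78 genes, 75 had their highest sh-RAD51C value in library 1 and 74 their lowest in library 3. In the NC group 49 were highest in library 2 and 62 lowest in library 3. The median deviation of the 78 genes from each gene's 6-library mean was 0.06, −0.03 and −0.09 (log2) in sh-RAD51C libraries 1, 2 and 3 and 0.03, 0.05 and −0.02 in NC libraries 1, 2 and 3. Over all genes tested it lay between −0.01 and 0.02 in every library. The share of inferred reads in the family was 5.47%, 5.13% and 4.93% in sh-RAD51C libraries and 5.43%, 5.48% and 5.22% in NC libraries, which overlapped, with means of 5.18 ± 0.274% in sh-RAD51C libraries and 5.38 ± 0.136% in NC libraries (SD, n = 3 each).

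**Figure D3:**
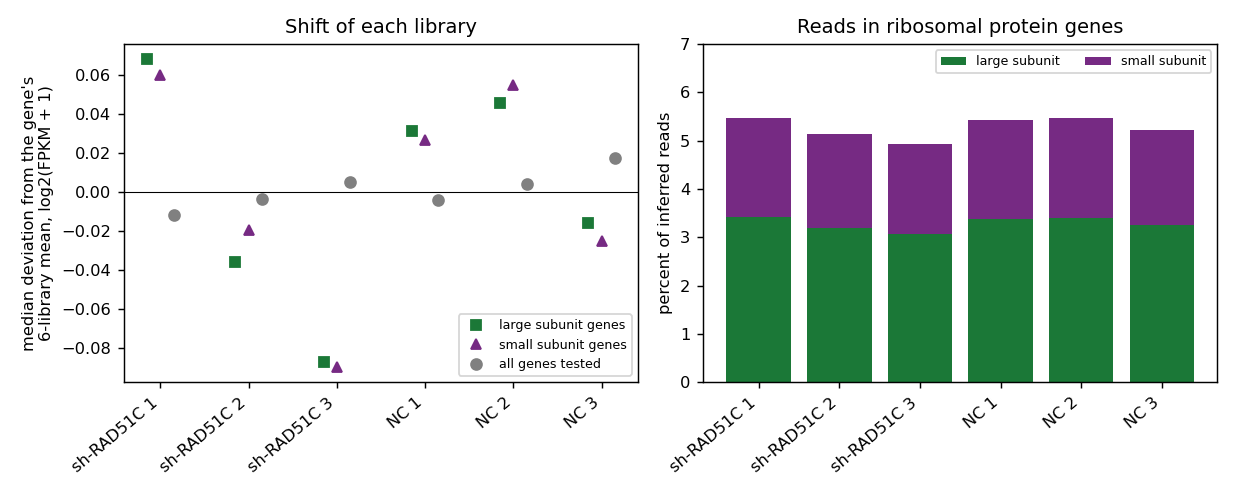
Left, the median deviation of large subunit genes (squares), small subunit genes (triangles) and all genes tested (circles) from each gene's 6-library mean, on the log2(FPKM + 1) scale, in each library. Right, the percent of inferred reads in large and small subunit genes, stacked, with the axis from 0. Both subunits shift together, from 0.06 in sh-RAD51C library 1 to −0.09 in sh-RAD51C library 3, while all genes tested stay within 0.02 of 0.

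The number of calls varied with the libraries and the scaling used. Without sh-RAD51C library 1 the count of genes called lower was 30 of 78, against 12 with all libraries. It was 4 without any one of sh-RAD51C library 2, sh-RAD51C library 3, NC library 1 or NC library 2, and 14 without NC library 3. Each of these fits called 2 genes higher. Centring every library on the median of the ribosomal protein genes, an alternative chosen after the shift was seen, called 3 genes higher and 10 lower. Quantile normalization called 9 higher and 21 lower, median-of-ratios rescaling 2 higher and 4 lower, and a fit freed of gene length and GC trends 12 higher and 11 lower, so the split between directions depended on the scaling. The median of the 78 genes was below 0 in all 17 alternative fits, between −0.0747 without sh-RAD51C library 1 and −0.0063 after centring on the family. Centring sets that median near 0, so its sign there says nothing about the groups. The median over all genes tested ran from −0.0177 to 0.0228 in these fits. Without sh-RAD51C library 3, the median over all genes tested was −0.0166, below the −0.0092 of the 78 genes. RPL13A, RPL3 and RPL7A stood apart also after centring: relative to the family's median, RPL13A lay 0.61 ± 0.055 above it in sh-RAD51C libraries and 0.91 ± 0.047 above it in NC libraries (log2(FPKM + 1), SD, n = 3 each). For RPL3 this distance was 0.51 ± 0.007 in sh-RAD51C libraries and 0.70 ± 0.024 in NC libraries, and for RPL7A 1.35 ± 0.007 in sh-RAD51C libraries and 1.503 ± 0.022 in NC libraries.

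Most of the genes called lower lie on 1 chromosome arm, which the rule did not use. RPL13A (chr19:49487554-49492308, plus strand, GRCh38, GENCODE release 29) lies on the long arm of chromosome 19. Of the 12 genes called lower, 7 lie on that arm, taken as chromosome 19 beyond position 27000000, and these include RPL13A, RPS16, RPL18, RPL28, RPS9 and RPS19. The 8 tested ribosomal protein genes of the arm had a median log2 fold change of −0.14, against −0.03 for the 70 tested members elsewhere, of which 2 were higher and 5 lower. The arm was picked after the values were seen, so these counts are a description.

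The other genes of that arm were also shifted down. Of 387 other tested genes there, 168 (43.4%) were called lower and 48 (12.4%) higher, and the median change was −0.10 (log2). Among all genes tested, 26.2% were lower and 23.2% higher. Arms of other chromosomes were not counted. On the rest of chromosome 19, 82 of 352 other tested genes were lower and 86 higher, with a median of −0.00, and none of the 4 ribosomal protein genes there was called. With the gene length and GC trends of each library removed, the medians on the long arm were −0.09 for the ribosomal protein genes and −0.07 for the other genes. Within 200 kb of the start of RPL13A, 12 of 14 other tested genes were lower and 0 higher, with a median of −0.24 and a range from −0.52 to 0.06. Over all 78 genes, the log2 fold change and the median of the 20 nearest other tested genes had a Spearman rho of 0.259 and a Pearson r of 0.312. This is a correlation across genes, which share libraries and, where they lie close, neighbours. RPL3 on chromosome 22 (chr22:39312882-39320389, minus strand) had 10 of its 20 neighbours lower and 5 higher, and RPL7A on chromosome 9 (chr9:133348214-133351426, plus strand) had 11 lower and 5 higher.

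**Figure D4:**
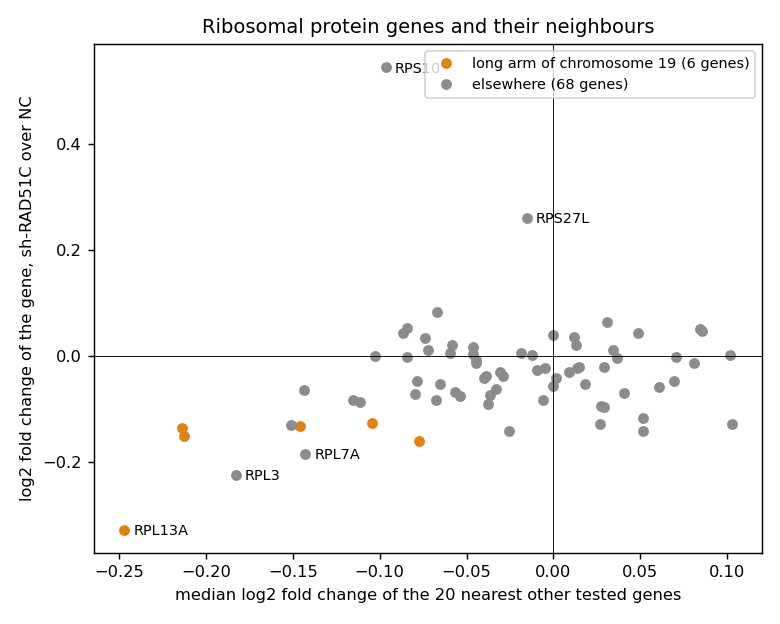
Log2 fold change of 74 tested ribosomal protein genes (vertical axis) against the median log2 fold change of the 20 nearest other tested genes (horizontal axis). The 6 genes of the long arm of chromosome 19 that are drawn (orange) all lie below 0 on both axes, and RPL13A has the lowest value on both.

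Some genes of other families varied much like RPL13A from library to library. TMEM102, PSMB8, MVB12A and H2AJ were among the 5 genes whose log2(FPKM + 1) pattern over the 6 libraries was most like that of RPL13A, with Pearson r from 0.993 to 0.997. This ranks likeness over 6 points that include the difference between the groups, and it is given with no test.

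The calls were also counted by features of the messages, and no difference between these groups of genes was tested. Of the 46 genes with a pyrimidine-tract-like start, 10 were lower and 1 higher, with a median of −0.04. Of the 17 with an entry but no such start, 1 was lower and 1 higher, with a median of −0.02. Among the 649 other tested genes with such a start, 187 were lower and 130 higher, with a median of −0.04. The 8319 other tested genes with an entry but no such start had 2126 lower and 1969 higher, with a median of −0.005. Among all genes tested, 26.2% were lower and 23.2% higher. The 28 genes with an annotated small nucleolar RNA in their span had 5 lower (17.9%) and 0 higher, with a median of −0.04. The 50 tested genes without one had 7 lower (14%) and 2 higher (4%), with a median of −0.03. Among the 20 genes known from Diamond-Blackfan anaemia, 3 (15%) were lower (RPL18, RPS19 and RPL31) and 1 (5%) higher (RPS10).

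Ribosomal proteins outside the symbol rule had 4 of 7 genes (57.1%) higher, 0 lower and a median log2 fold change of 0.12. Among all genes tested, 23.2% were higher and 26.2% lower. The largest change was that of RPL22L1, a paralog of RPL22, with 29.1, 24.9 and 27.3 FPKM in sh-RAD51C libraries and 17.1, 18.0 and 17.6 FPKM in NC libraries. These groups did not overlap (log2 fold change 0.59, SE 0.054, limma adjusted p = 5.49e-06). RPL22 itself had 149 ± 15.3 FPKM in sh-RAD51C libraries and 157 ± 3.26 FPKM in NC libraries (−0.08, limma adjusted p = 0.315). The paralogs RPL7L1 (0.20, limma adjusted p = 0.0017), RPL26L1 (0.16, limma adjusted p = 0.0314) and RPL36AL (0.12, limma adjusted p = 0.0407) were also higher, with overlapping groups for RPL36AL. Their base genes RPL7, at 666 ± 31.8 FPKM in sh-RAD51C libraries and 679 ± 20.03 FPKM in NC libraries, and RPL26, at 453 ± 29.6 FPKM in sh-RAD51C libraries and 475 ± 10.1 FPKM in NC libraries, were not called. Whether paralog and base gene differ in their response was not tested.

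Factors that carry ribosomal proteins and assemble ribosomes were mostly higher. Among all genes tested, 23.2% were higher and 26.2% lower. Of 13 chaperones and importins of ribosomal proteins, 11 (84.6%) were higher and 0 lower, with a median of 0.29. LTV1, which helps place proteins in the small subunit, had 34.8 ± 0.90 FPKM in sh-RAD51C libraries and 24.2 ± 1.26 FPKM in NC libraries (log2 fold change 0.50, limma adjusted p = 4.38e-06), and GRWD1, a chaperone of RPL3, had 16.4 ± 0.542 FPKM in sh-RAD51C libraries and 11.7 ± 0.858 FPKM in NC libraries (0.46, limma adjusted p = 4.45e-05). BCCIP, a chaperone of RPL23 (0.42), and IPO7, an import receptor of ribosomal proteins (0.32), were higher as well. Of 18 ribosome biogenesis factors, 16 (88.9%) were higher and 0 lower, with a median of 0.45. RRS1, which brings the 5S particle with RPL5 and RPL11 into the large subunit, had 56.5 ± 2.54 FPKM in sh-RAD51C libraries and 31.4 ± 0.647 FPKM in NC libraries (0.83, limma adjusted p = 6.66e-08). BOP1 (0.76), DKC1 (0.60) and NOLC1 (0.55), nucleolar factors of ribosomal RNA processing and modification, were called higher too. Mitochondrial ribosomal proteins, which build a separate ribosome, had 18 of 25 (72%) higher, 0 lower and a median of 0.21. MRPL12 had 155 ± 5.02 FPKM in sh-RAD51C libraries and 106 ± 3.84 FPKM in NC libraries (0.55, limma adjusted p = 1.07e-06).

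Lists of regulators held calls in both directions, at shares near or under that of all genes tested. Of 12 transcription factors linked to ribosomal protein genes, 4 were higher and 2 lower (50% called, against 49.4% of all genes tested), with a median of 0.08. MYC, which activates many genes of ribosome production, had 50.4 ± 1.61 FPKM in sh-RAD51C libraries and 31.0 ± 1.11 FPKM in NC libraries (log2 fold change 0.68, limma adjusted p = 2.34e-07), MAX and E2F1 were higher, and SP1 was lower (−0.38, limma adjusted p = 4.54e-05). Of 13 genes between mTORC1 and the pyrimidine-tract messages, 5 were higher and 1 lower (46.2% called), with a median of 0.08. The translation repressor genes EIF4EBP1 (0.39, limma adjusted p = 0.000314) and EIF4EBP2 (−0.44, limma adjusted p = 6.17e-06) moved in opposite directions, and LARP4 and RHEB were higher. Of 14 other translation genes with pyrimidine-tract messages, 1 was higher and 4 lower (35.7% called), with a median of −0.06. EIF4B (−0.29, limma adjusted p = 4.84e-05), EIF3L (−0.22) and TPT1 (−0.16) were among the lower ones, and PABPC1 (0.19, limma adjusted p = 0.00177) was the higher one.

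Genes of the p53 response to ribosomal stress were mostly lower. Of 8, 6 (75%) were lower and 1 (12.5%) higher, with a median of −0.30. Among all genes tested, 26.2% were lower and 23.2% higher. CDKN1A, the cell cycle inhibitor induced by p53, had 31.2, 26.8 and 26.9 FPKM in sh-RAD51C libraries and 41.1, 37.9 and 37.9 FPKM in NC libraries. Its groups did not overlap (log2 fold change −0.45, limma adjusted p = 8.69e-05). NOP53, a nucleolar protein that binds the 5S particle, had 81.0 ± 2.88 FPKM in sh-RAD51C libraries and 114 ± 4.53 FPKM in NC libraries (−0.49, limma adjusted p = 3.01e-06), ZNF385A was lower (−0.84, limma adjusted p = 2.53e-06), and MYBBP1A, which binds p53 upon nucleolar stress, was higher (0.60, limma adjusted p = 4.41e-05).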

How the data were processed

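Total RNA of 5637 cells was sequenced in 3 sh-RAD51C and 3 NC libraries. The deposited values are FPKM, calculated by the authors; hg38, R 3.2.0 and DESeq2 are named without a role, per the submitters' processing notes. The aligner, counter, strand setting and annotation: not given in the sources used here. Column names were matched to titles, leaving 0 per-sample columns unused. Whole reads were inferred from the FPKM steps for 100% of kept genes, within 0.0001 reads. The 11152 genes averaging at least 1 FPKM were fitted as log2(FPKM + 1) without covariates in limma 3.58.1, under R 4.3.3. The empirical Bayes step used a variance trend, and p-values were adjusted over all 11152 genes by Benjamini and Hochberg's method. Fold changes on this scale understate those of low genes. Positions, small nucleolar RNAs, overlaps and pseudogene names came from GENCODE release 29 (GRCh38), and start sequences from RefSeq (GRCh38.p14). Other steps ran in Python 3.11.15 with scipy 1.17.1, pandas 2.3.3 and numpy 2.4.6.

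Members, the 9 other gene lists, tests and alternatives were chosen with earlier results of these data known. Genes named by rule are RAD51C, every called member, the 5 highest and 5 lowest members by FPKM, RPL5, RPL11, paralogs by symbol, RPS6, RPSA, RPLP0, RPLP1, RPLP2, RPS19, up to 4 called genes per other list with the smallest p, and the 5 genes most like RPL13A; others were chosen after their values were seen. Counts cover every member, and some members are not reported here by name. On simulated libraries of 11152 genes, 10952 of them unchanged, the fit called 2% of 50 genes changed 1.1-fold and 46% of 50 changed 1.2-fold. It called 100% of those changed 1.5-fold or 2-fold, and 13 of the 10952 unchanged genes. In the deposited libraries the fit called 49.4% of all genes tested, and its recovery at that share of calls was not tested. Within a group, pairs of libraries gave a chi-square of 3.69 to 14.3 per degree of freedom, above sampling noise, so none was treated as a repeat. The alternatives were another pseudocount, 2 other filters, 5 rescalings, no variance trend, limma's voom on inferred reads, a replicate block, a stricter threshold and leaving out each library. Depth per library is given with the results; inferred reads carry counting error only.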

Additional observations from a re-analysis of the deposited data

How the results depend on the processing

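RAD51C was lower in all 17 alternative fits, with log2 fold changes from −2.12 to −1.78, and genes called overall stayed within 1.5 times of 5511. Counts of ribosomal protein genes moved more, and the cause was not tested. Genes called lower numbered 12 in the reported fit, 3 with no filter on low values, 4 with median-of-ratios rescaling, 21 with quantile normalization, 6 without the variance trend, 4 at an adjusted p under 0.01 and from 4 to 30 when 1 library was left out. Genes called higher numbered 2, against 0 with a mean of at least 5 FPKM (RPS10 and RPS27L fall under that filter), 9 with quantile normalization and 12 with length and GC trends removed. Large subunit genes called numbered 7, against 2, 3, 15, 4, 13 and 3 with no filter, median-of-ratios, quantile normalization, no variance trend, trends removed and the stricter threshold, and from 3 to 16 with 1 library left out. The only tested large subunit gene without annotated pseudogene copies was RPL28, and it was called, so a count limited to such genes says nothing about the others. Small subunit genes called numbered 7, against 3, 3, 15, 4 and 3 with no filter, median-of-ratios, quantile normalization, no variance trend and the stricter threshold, and from 3 to 16 with 1 library left out. With the replicate number as a block 2 genes were higher and 14 lower. Over all genes tested, deviations of same-numbered libraries from their group means had correlations of 0.19, 0.026 and 0.091. For differently numbered libraries the correlations ran from −0.167 to 0.11. Whether same-numbered libraries share a batch cannot be told from these values. Among the named members signs turned only for uncalled genes near 0. Quantile normalization gave RPL30 0.021, RPL5 0.022, RPLP0 0.031 and RPS4X 0.039. Median-of-ratios gave RPS4X 0.0077, and rescaling to all other genes gave RPS4X 0.0090. With trends removed the value was RPL30 0.043, and after centring on the family RPL17 0.0097, RPLP0 0.0027 and RPS4X 0.031. A pseudocount of 0.1 gave RPL36A −0.0021 and voom gave RPL36A −0.00396. With 1 library left out, signs turned within these ranges: RPL17 from −0.079 to 0.039, RPL36A from −0.0996 to 0.0996, RPLP0 from −0.061 to 0.0056, RPLP2 from −0.0199 to 0.026, RPS4X from −0.035 to 0.025 and RPSA from −0.0015 to 0.077. Of the single members' values, 337 kept their direction and side of the threshold, 63 fell back across it and 14 newly passed.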
